A study of Homo sapiens with 12 samples.

Results

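Genes switched on by the tumour suppressor p53, other than the p21 gene CDKN1A, were followed in cultured IMR-90 cells. The members were 32 named p53 target genes, taken as the mean of the probe sets that name only that gene under its current or former symbol. Of these, 29 were measured by 75 probe sets, among 19775 genes in all. BBC3 was covered only by a probe set that also names other genes and was left out, and BTG2 and FDXR were not analysed here. IMR-90 cells are fibroblasts from human lung that stop dividing after a limited lifespan in culture. Total RNA went onto 12 Affymetrix arrays, 3 for each of 4 groups. Late-passage cells kept at 3% oxygen, called old and nonsenescent in the labels, had reached population doubling 53, and their young counterparts at 3% doubling 30. Senescent cells kept at 20% oxygen had reached doubling 48, and the young ones at 20% doubling 30. The line, a serum-containing medium and harvest at the same stated confluency were shared by all groups, and the labels name no other agent. A different incubator served each oxygen level, so oxygen and incubator cannot be told apart. The 2 late groups also differ in doublings and in being senescent or not, which cannot be told apart from oxygen there. That arrays of a group are separate cultures rests only on replicate numbers and on their being called biological, so the p-values measure the spread between these arrays.

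The protein p53 is a transcription factor that is held low by the ubiquitin ligase MDM2 and is stabilised when DNA is damaged or cells are stressed. Its targets arrest the cell cycle, repair DNA, limit oxidants, start apoptosis and, through MDM2 itself, shut p53 down again. In fibroblasts that have used up their divisions, p53 and p21 are known to hold the permanent arrest called replicative senescence. Since some of these genes are also induced by other pathways, their level is no direct measure of p53.

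Values below are log2 signals from which each probe set's median across the 12 arrays was taken away, averaged over the gene's probe sets. Differences between groups can be read from it, and the level of a gene, or of a gene relative to another, cannot. Changes are group differences of these log2 values ± their standard error, fitted over all 12 arrays with limma, and a gene was called at an adjusted p under 0.05 (Benjamini-Hochberg over all 19775 genes). Group values are means ± SD (n = 3). Fewer cells that express a gene and less RNA per cell cannot be told apart in such bulk RNA.

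Array medians over all genes lay close together, from -0.033 to 0.069. The SD over all genes differed more, from 0.18 on replicate 3 to 0.34 on replicate 1 of the young cells at 3% oxygen. For ACTB, whose control probe sets at the 3' and 5' ends report on RNA quality, the 3' signal minus the 5' signal was 0.71 on replicate 2 of the young cells at 3% oxygen and -0.22 to 0.35 on the other arrays. Whether fibroblast markers are present could not be read, because the values are centred. Of 14 fibroblast markers, senescent cells had 1 called higher and 5 lower than young cells at 20%, against 4.67% and 7.84% of all genes. Limma called none of 10 epithelial, 8 endothelial and 7 immune markers in that comparison, and 0, 1 and 0 of them had an unadjusted p under 0.05. Young cells at 3% against 20% oxygen had 1 fibroblast marker higher and 5 lower, against 4.96% and 6.84% of all genes. There 1 epithelial marker was called lower, and no endothelial or immune marker was called. The p21 gene CDKN1A ranged from -0.12 to 0.22 in old cells and from -0.49 to -0.19 in young cells at 3% oxygen. Its range was 1.64 to 1.75 in senescent cells and -0.16 to 0.01 in young cells at 20%.

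In senescent against young cells at 20% oxygen, 9 of 29 members were higher and 1 lower, where 4.67% of all genes were called higher and 7.84% lower (12.5% in either direction). With each array centred on its median the split was 9 higher and 4 lower, and with array quality weights 16 higher and 4 lower. Of all 19775 genes 2594 were called with the centring and 6203 with the weights, against 2474 in the main fit. The members' median change was 0.21, against 0.04 over all genes. In old against young cells at 3% oxygen, 1 member was higher (PLK2) and 1 lower (GADD45A), with 0.981% and 0.759% of all genes called in these directions (1.74% in either). The members' median was 0.19 there, and that of all genes 0.05. Young cells at 3% oxygen had 2 members higher and 8 lower than young cells at 20%, against 4.96% and 6.84% of all genes (11.8% in either direction). Old cells at 3% had 2 members higher and 9 lower than senescent cells at 20%, against 6.59% and 4.41% (11% in either direction). The medians were -0.13 and -0.19, against -0.03 and -0.02 over all genes. Altogether 17 members were called in at least 1 of these 4 comparisons, 12 in none, and PLK2 in all 4, against 21.9% of all genes in at least 1 and 0.42% in all 4. The plot of all members by array shows these values.

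Groups that did not overlap were counted apart from the test. Senescent arrays all lay above the young arrays at 20% oxygen in 13 members and below them in 4, against 14.1% and 15.2% of all genes. Old arrays lay above the young ones at 3% in 8 members and below in 1, against 9.36% and 6.23%. Young arrays at 3% lay above those at 20% in 4 members and below in 13, against 12.5% and 17.2%. Old arrays lay above the senescent ones in 3 members and below in 14, against 12.8% and 11.5%.

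**Figure D1:**
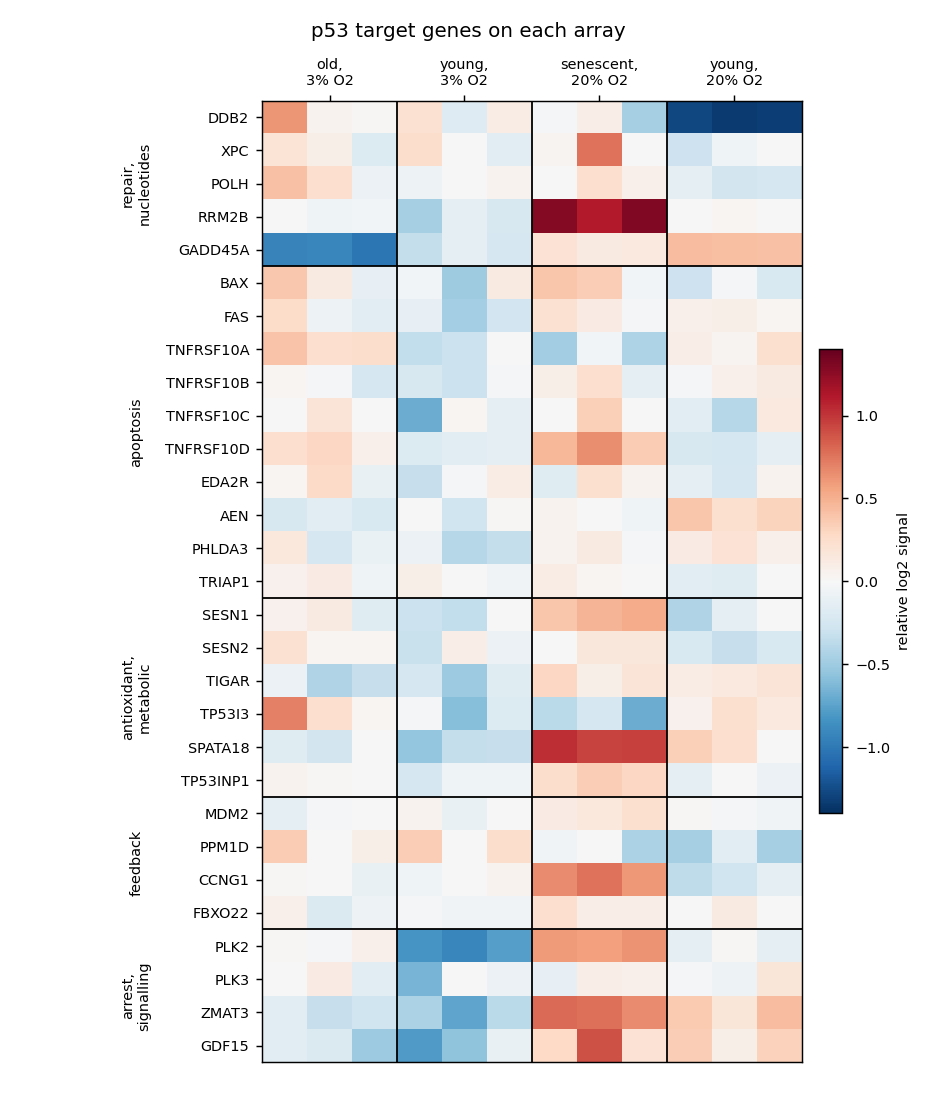
Log2 signal of the 29 measured members (rows, by role) on each of the 12 arrays (columns, 3 per group), relative to the median over the arrays (colour). RRM2B, SPATA18, CCNG1, ZMAT3 and PLK2 stand out in the 3 senescent columns, and DDB2 is lowest in young cells at 20% oxygen.

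Senescent cells held the highest values of 9 members. In RRM2B, TNFRSF10D, SESN1, SPATA18, TP53INP1, MDM2, CCNG1, PLK2 and ZMAT3 all 3 senescent arrays lay above all 9 others, a pattern found in 4.19% of all genes. All 3 senescent arrays lay below the others in none of the members and in 4.15% of all genes. Young cells at 20% oxygen were lowest in DDB2, POLH and CCNG1, which 3.69% of all genes showed, and highest in GADD45A and AEN, which 6.37% showed. Young cells at 3% oxygen were lowest in RRM2B, SPATA18, PLK2 and ZMAT3 (1.73% of all genes) and highest in no member (1.12%). Old cells were highest in TNFRSF10A (2.28%) and lowest in GADD45A (1.46%). All 6 arrays at 3% oxygen lay below all 6 at 20% in GADD45A, TIGAR, SPATA18, ZMAT3 and GDF15, against 2.54% of all genes, and above them in PPM1D alone, against 3.57%.

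Among the targets that serve DNA repair and nucleotide supply, RRM2B and DDB2 rose in senescence. RRM2B encodes the p53-inducible small subunit of ribonucleotide reductase, which supplies nucleotides for repair in cells that do not divide. It stood at 1.28, 1.11 and 1.30 in senescent cells, against 0.00, 0.03 and 0.01 in young cells at 20% oxygen. At 3% oxygen it read 0.00, -0.06 and -0.04 in old cells, against -0.47, -0.14 and -0.22 in young cells. The senescent arrays were thus apart from all others, and at 3% the old arrays lay just above the young ones. RRM2B was 2.4-fold lower in old than in senescent cells (-1.26 ± 0.10, adjusted p = 2.37e-06 in limma). The change of 0.24 ± 0.10 between old and young cells at 3% was not called (adjusted p = 0.31).

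DDB2, which recognises ultraviolet damage in nucleotide excision repair, had a different pattern. It read -0.02, 0.09 and -0.46 in senescent cells, against -1.27, -1.34 and -1.32 in young cells at 20% oxygen. Old cells gave 0.62, 0.05 and 0.02, against 0.21, -0.18 and 0.10 in young cells at 3% oxygen. The 3 young arrays at 20% lay below all others, and the other 3 groups overlapped with each other. DDB2 was thus 2.56-fold higher in young cells at 3% than at 20% oxygen (1.36 ± 0.18, adjusted p = 0.000221 in limma), the largest rise of a member there, while old minus senescent cells gave 0.36 ± 0.18. Targets of the hypoxia-inducible factors were also lowest in young cells at 20% oxygen, with a mean of 0.15 to 0.16 in senescent cells, against -1.13 to -1.03 in those young cells, and their part in the DDB2 result was not tested.

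GADD45A, a stress sensor that binds PCNA and p21, was lower with passage at 3% oxygen. It fell by 0.72 on the log2 scale in old cells (SE 0.08, adjusted p = 0.000494), to -0.93, -0.91 and -1.01, against -0.33, -0.13 and -0.23 in young cells at 3% oxygen. Senescent cells read 0.20, 0.13 and 0.14, against 0.43, 0.42 and 0.41 in young cells at 20%. No 2 groups overlapped, and both groups at 3% lay below both at 20%. GADD45A was 2.15-fold lower in old than in senescent cells (-1.11 ± 0.08, adjusted p = 1.48e-06) and 1.57-fold lower in young cells at 3% than at 20%. The senescent change of -0.26 ± 0.08 was not called (adjusted p = 0.0581). XPC, the damage recognition partner of nucleotide excision repair, changed by 0.38 between senescent and young cells with overlapping arrays, and senescent replicate 2 alone stood high (0.76). The translesion polymerase POLH changed by 0.31 ± 0.12 (adjusted p = 0.132), and its 6 probe sets gave 0.15 to 0.46. Neither was called in any comparison. As a group of 5, repair targets had 2 members higher and none lower in senescent cells (limma; 4 with an unadjusted p under 0.05), where 4.67% and 7.84% of all genes were called, and a median change of 0.38 against 0.04 over all genes.

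**Figure D2:**
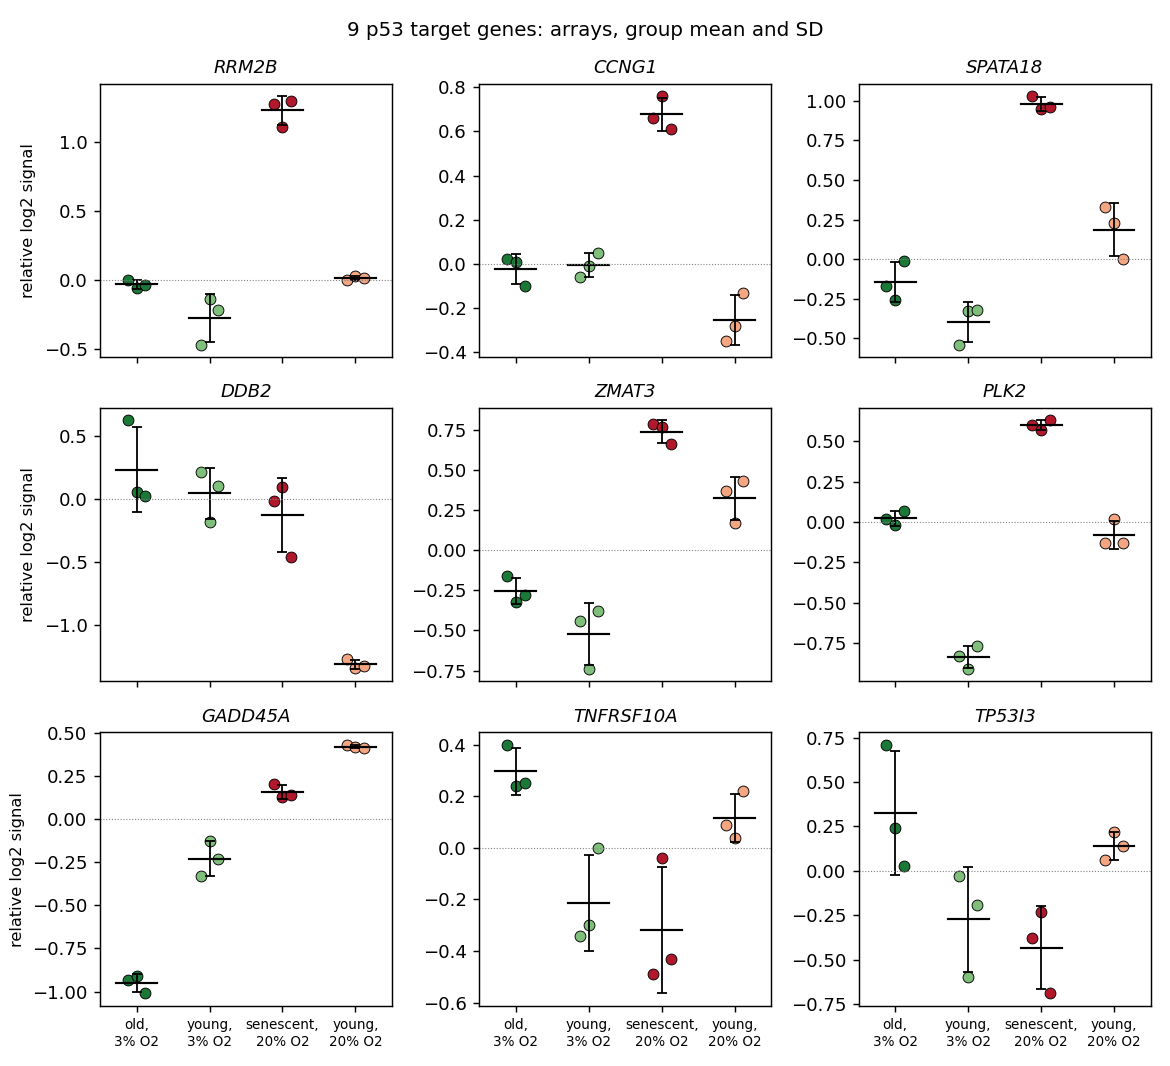
Relative log2 signal (y axes, scales differ between panels) of 9 members on each array (points) in the 4 groups (x axes), with the group mean (line) and SD (bar, n = 3). RRM2B, CCNG1 and SPATA18 are highest in senescent cells, DDB2 is low in young cells at 20% oxygen, and GADD45A is lowest in old cells at 3%.

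Of 10 measured apoptosis targets, 1 was higher and 1 lower in senescent cells than in young ones at 20% oxygen, both receptors of the death ligand TRAIL. This is near the share of all genes, of which 4.67% were called higher and 7.84% lower, and the median change was 0.09 against 0.04. TNFRSF10D, a decoy receptor with a truncated death domain, read 0.47, 0.65 and 0.36 in senescent cells, against -0.22, -0.25 and -0.13 in young cells at 20%. In old cells it read 0.23, 0.29 and 0.07, against -0.19, -0.15 and -0.13 in young cells at 3% oxygen. No old or senescent array overlapped its young group. The change at 20% was 0.69 ± 0.10 (1.62-fold, adjusted p = 0.000424) with 1.03 and 0.35 on its 2 probe sets, and that at 3% was 0.35 ± 0.10 and not called (adjusted p = 0.118).

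TNFRSF10A, a TRAIL receptor that does signal death, went the other way at 20% oxygen. It read -0.49, -0.04 and -0.43 in senescent cells, against 0.09, 0.04 and 0.22 in young cells, and 0.40, 0.24 and 0.25 in old cells, against -0.34, -0.30 and 0.00 in young cells at 3%. Old cells were the highest group and did not overlap any other. The senescent change was -0.44 ± 0.13 (adjusted p = 0.0478), and its 3 probe sets gave -0.95, -0.28 and -0.07. That call was lost without any 1 of 5 arrays, the 3 young ones and senescent replicates 1 and 3 (adjusted p from 0.086 to 0.191). Old cells were 1.53-fold above senescent cells (0.62 ± 0.13, adjusted p = 0.00787), with 1.35, 0.47 and 0.03 on the 3 probe sets. The 4 TRAIL receptor genes are close relatives. Whether their probe sets read transcripts of more than 1 of them was not tested, so single members of this family are uncertain.

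The remaining apoptosis members gave weaker or no calls. AEN, an exonuclease of dying cells, read 0.01, -0.28 and 0.02 in young cells at 3% oxygen, against 0.39, 0.22 and 0.31 at 20% (-0.39 ± 0.10, adjusted p = 0.0194). PHLDA3, a repressor of the survival kinase AKT, gave -0.08, -0.40 and -0.33 in young cells at 3%, against 0.11, 0.20 and 0.07 in those at 20% (-0.39 ± 0.12, adjusted p = 0.0447). Neither gene overlapped between these groups. The AEN call was lost without young 20% replicate 1 or 3 or young 3% replicate 2 (adjusted p from 0.0601 to 0.0953), and that of PHLDA3 without any 1 of 5 arrays, young 3% replicate 1 being the exception (0.0839 to 0.149). The pore-forming BAX changed by 0.40 ± 0.18 in senescent cells (adjusted p = 0.202), with 0.37 and 0.44 on its 2 probe sets and overlapping arrays. The death receptor FAS differed by -0.35 ± 0.12 between young cells at 3% and 20% (adjusted p = 0.0914). TNFRSF10B, the decoy TNFRSF10C, the ectodysplasin receptor EDA2R and the apoptosis inhibitor TRIAP1 were not called in any comparison. At 3% oxygen limma called 0 of 10 apoptosis members between old and young cells, near the 1.74% of all genes called there, and 3 had an unadjusted p under 0.05.

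The antioxidant, metabolic and mitochondrial targets included 3 of 6 that rose in senescence, against 4.67% of all genes, with a median of 0.36 against 0.04. SPATA18 takes part in the quality control of mitochondria. It read 1.03, 0.95 and 0.96 in senescent cells, against 0.33, 0.23 and 0.00 in young cells at 20% oxygen, and -0.17, -0.26 and -0.01 in old cells, against -0.54, -0.33 and -0.32 in young cells at 3%. No 2 of these groups overlapped, and the order of the group means was senescent (0.98 ± 0.05), young at 20% (0.19 ± 0.17), old (-0.15 ± 0.13) and young at 3% (-0.40 ± 0.12). SPATA18 was 2.18-fold lower in old than in senescent cells (-1.13 ± 0.11, adjusted p = 1.78e-05) and 1.5-fold lower in young cells at 3% than at 20% (adjusted p = 0.00335). Its 2 probe sets differed: 1 gave -1.90 and -1.18 in these comparisons and the other -0.35 and 0.01.

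The sestrins curb mTORC1 and help restore peroxiredoxins. SESN1 read 0.39, 0.48 and 0.52 in senescent cells, against -0.42, -0.13 and 0.01 in young cells at 20% oxygen (0.65 ± 0.13, 1.57-fold, adjusted p = 0.00537). SESN2 changed by 0.35 ± 0.11 (adjusted p = 0.0591), and its 2 probe sets gave 0.59 and 0.10. The senescent arrays did not overlap the young ones in either gene. SESN1 was lower in old than in senescent cells (-0.46 ± 0.13, adjusted p = 0.0423), a call lost without any 1 of the 6 arrays (adjusted p from 0.0577 to 0.139). TP53INP1, a stress protein that promotes autophagy and p53 activity, rose in senescent cells to 0.25, 0.34 and 0.29, against -0.13, 0.01 and -0.08 in young cells at 20% (0.36 ± 0.08, adjusted p = 0.0126). Of its 3 probe sets 1 gave 0.84 and the others 0.17 and 0.07. Leaving out young replicate 1 ended this call (adjusted p = 0.068), and so did leaving out senescent replicate 2 (0.0511).

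TIGAR and TP53I3 did not rise in senescence. TIGAR is a phosphatase that slows glycolysis and feeds the pentose phosphate pathway. It read -0.08, -0.42 and -0.32 in old cells and -0.23, -0.51 and -0.17 in young cells at 3% oxygen, against 0.29, 0.08 and 0.18 in senescent cells and 0.10, 0.14 and 0.18 in young cells at 20%. All 6 arrays at 3% lay below all 6 at 20%, while the groups within an oxygen level overlapped. TIGAR was 1.36-fold lower in young (-0.45 ± 0.12, adjusted p = 0.0232) and 1.38-fold lower in late cells (-0.46 ± 0.12, adjusted p = 0.0212). The first call was lost without any 1 of the 3 young 20% arrays or young 3% replicate 2 (adjusted p from 0.0623 to 0.0905). The second was lost without senescent replicate 1 or 3 or old replicate 2 or 3 (0.0611 to 0.0983). TP53I3, a quinone oxidoreductase that generates rather than removes oxidants, read 0.71, 0.24 and 0.03 in old cells, against -0.38, -0.23 and -0.69 in senescent cells (0.76 ± 0.19, 1.69-fold, adjusted p = 0.0188). The groups did not overlap, but the call was lost without old replicate 1 or senescent replicate 1 or 3 (adjusted p from 0.0503 to 0.0873).

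The feedback targets, which act on p53 itself, gave 1 strong change among 4. CCNG1, a cyclin that directs the phosphatase PP2A to MDM2, read 0.66, 0.76 and 0.61 in senescent cells, against -0.35, -0.28 and -0.13 in young cells at 20% oxygen. It read 0.02, 0.01 and -0.10 in old cells, against -0.06, -0.01 and 0.05 in young cells at 3%. Senescent arrays were apart at the top, young arrays at 20% were apart at the bottom, and both groups at 3% overlapped between them. CCNG1 was 1.62-fold lower in old than in senescent cells (-0.70 ± 0.09, adjusted p = 0.00017). MDM2 was not called: senescent cells read 0.11, 0.15 and 0.22, against 0.02, -0.02 and -0.05 in young cells at 20%. These arrays did not overlap, but the change was 0.17 ± 0.08 (adjusted p = 0.256), and its 10 probe sets gave -0.11 to 0.55. PPM1D, the phosphatase that removes activating phosphates from p53, was higher in young cells at 3% than at 20% oxygen, with 0.34, 0.01 and 0.25 at 3% and -0.46, -0.15 and -0.46 at 20%. The change of 0.56 ± 0.15 (adjusted p = 0.0271) was lost without young 20% replicate 1 or 3 or young 3% replicate 1 or 3 (adjusted p from 0.0768 to 0.109). FBXO22, the substrate receptor of a ubiquitin ligase for methylated p53, was not called in any comparison. At 3% oxygen limma called 0 of the 4 between old and young cells, where it called 1.74% of all genes, and 0 had an unadjusted p under 0.05. So few members at so low a share could hardly hold a call.

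Of 4 measured growth arrest and signalling targets, 3 were lower and none higher in young cells at 3% than at 20% oxygen (limma; 3 with an unadjusted p under 0.05), against 6.84% of all genes lower and 4.96% higher. The median change was -0.74, against -0.03 over all genes. ZMAT3, PLK2 and GDF15 were also the 3 called lower in old against senescent cells, where 4.41% of all genes were, with a median of -0.66 against -0.02. ZMAT3, an RNA-binding zinc finger protein that regulates splicing, read -0.16, -0.32 and -0.28 in old cells and -0.44, -0.74 and -0.38 in young cells at 3% oxygen, against 0.79, 0.77 and 0.66 in senescent cells and 0.37, 0.17 and 0.43 in young cells at 20%. No 2 groups overlapped. ZMAT3 was 1.79-fold lower in young cells at 3% than at 20% (-0.84 ± 0.11, adjusted p = 0.000254) and 1.99-fold lower in old than in senescent cells (-0.99 ± 0.11, adjusted p = 6.05e-05). Of its 5 probe sets, 4 gave -1.20 to -0.87 in young cells and 1 gave -0.16. Its rise in senescence was smaller (0.42 ± 0.11, adjusted p = 0.0274) and was lost without replicate 1 or 2 of either group (adjusted p from 0.0645 to 0.13) and on the probe set with the largest SD (0.376).

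PLK2, a polo-like kinase of centriole duplication and stress responses, was called in all 4 pairwise comparisons. It read 0.02, -0.02 and 0.07 in old cells and -0.83, -0.91 and -0.77 in young cells at 3% oxygen, against 0.60, 0.57 and 0.63 in senescent cells and -0.13, 0.02 and -0.13 in young cells at 20%. It rose with passage at both oxygen levels, by 0.86 ± 0.08 at 3% (1.81-fold, adjusted p = 0.000139) and by 0.68 ± 0.08 at 20% (1.6-fold, adjusted p = 0.000154). At 3% oxygen it was 1.69-fold lower in young cells (-0.76 ± 0.08) and 1.49-fold lower in late cells (-0.58 ± 0.08). The groups did not overlap in any of these comparisons, while old cells at 3% and young cells at 20% did. Its relative PLK3 was not called in any comparison, with -0.27 (adjusted p = 0.344) between young cells at 3% and 20% and -0.03 between old and senescent cells. GDF15, a secreted stress cytokine, read -0.79, -0.56 and -0.10 in young cells at 3%, against 0.34, 0.08 and 0.32 at 20% (-0.73 ± 0.20, adjusted p = 0.0324). It read -0.16, -0.20 and -0.51 in old cells, against 0.28, 0.89 and 0.20 in senescent cells (-0.75 ± 0.20, adjusted p = 0.0297). The arrays did not overlap in either comparison. The first call was lost without young 20% replicate 1 or 3 or young 3% replicate 1 or 2 (adjusted p from 0.0997 to 0.129). The second was lost without senescent replicate 2 or any 1 old array (0.0555 to 0.113), and both were lost with the replicate block (0.0589 and 0.0551).

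The DNA just upstream of 1 transcription start of members with different patterns is shown to set the sequence beside the expression. The stretches are the 250 bases before 1 RefSeq transcription start per gene (GRCh38.p14), 5′ to 3′ on the strand of the gene. They belong to CCNG1 (apart at the top in senescent cells), ZMAT3 (low at 3% oxygen), PLK2 (called in all 4 comparisons) and AEN (highest in young cells at 20%). Capitals mark a match to the p53 consensus decamer, the 10-base unit that p53 binds as a pair. Counted from the start site, the match begins at -132 in PLK2 and at -34 in AEN. CCNG1 lies at chr5:163437321-163437570, plus strand, ZMAT3 at chr3:179071810-179072059, minus strand, PLK2 at chr5:58460087-58460336, minus strand and AEN at chr15:88621090-88621339, plus strand. The AEN locus begins at 88604683, and that of ZMAT3, on the minus strand, has its 5′ end at 179072513. Their stretches thus lie inside the locus, before an internal start. The stretches of CCNG1 and PLK2 lie just outside the 5′ end of theirs.
CCNG1: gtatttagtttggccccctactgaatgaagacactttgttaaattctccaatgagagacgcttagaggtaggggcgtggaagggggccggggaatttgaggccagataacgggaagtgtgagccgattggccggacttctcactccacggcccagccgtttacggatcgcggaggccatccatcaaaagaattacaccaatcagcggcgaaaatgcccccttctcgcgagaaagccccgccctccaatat
ZMAT3: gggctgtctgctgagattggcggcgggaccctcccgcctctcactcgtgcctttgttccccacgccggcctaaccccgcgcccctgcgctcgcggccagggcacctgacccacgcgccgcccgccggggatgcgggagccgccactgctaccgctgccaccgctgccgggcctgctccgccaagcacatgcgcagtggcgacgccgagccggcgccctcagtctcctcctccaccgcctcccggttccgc
PLK2: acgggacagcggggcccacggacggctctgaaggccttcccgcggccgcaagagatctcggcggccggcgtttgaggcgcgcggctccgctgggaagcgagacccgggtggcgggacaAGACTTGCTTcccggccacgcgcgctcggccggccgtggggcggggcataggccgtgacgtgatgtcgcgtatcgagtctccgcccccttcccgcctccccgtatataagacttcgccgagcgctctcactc
AEN: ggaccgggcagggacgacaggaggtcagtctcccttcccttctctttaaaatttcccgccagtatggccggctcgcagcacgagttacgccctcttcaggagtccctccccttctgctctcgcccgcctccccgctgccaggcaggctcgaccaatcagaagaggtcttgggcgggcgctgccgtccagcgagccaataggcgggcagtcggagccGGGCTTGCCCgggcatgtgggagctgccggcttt
The decamer is its own reverse complement as a pattern, so both strands are covered by 1 search. RefSeq promoters of 300 bases (250 before to 50 after the start) were at hand for 20 of the 29 measured members, and 2 of them, PLK2 and AEN, held a decamer, or 10.0%, against 6.63% of 35116 promoters. A pair of decamers, both matching exactly, with no more than 13 bases between them was in 0 of the 20 and in 0.0285% of all promoters. At so low a share 20 promoters could hardly hold any, and decamers with mismatches were not searched. These counts describe the letters of this window only.

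**Figure D3:**
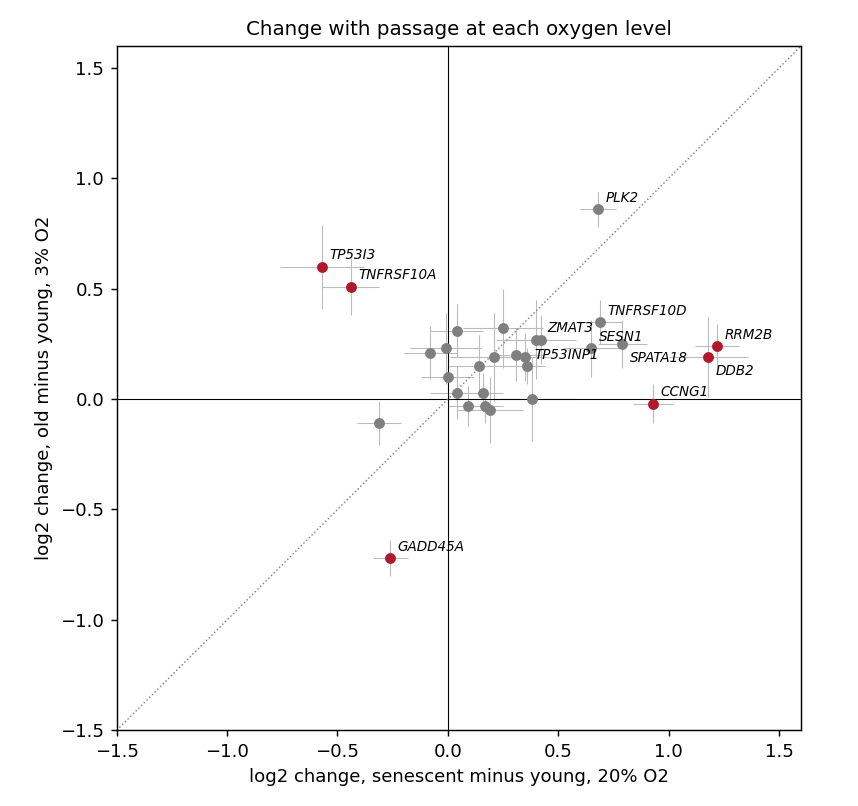
Log2 change with passage of the 29 members, senescent minus young at 20% oxygen (x axis) and old minus young at 3% (y axis), with standard errors, and a dotted line of equal change. Members whose changes differed in the interaction test are red. RRM2B, DDB2 and CCNG1 lie right of the line, and TP53I3 and TNFRSF10A at upper left.

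The change with passage differed between the oxygen levels in 6 members by the interaction test (change at 20% minus change at 3%). Of these, 4 were positive and 2 negative, where 2.06% and 4.37% of all genes were called (6.44% in either direction). RRM2B differed by 0.97 ± 0.14 (adjusted p = 0.00113) and CCNG1 by 0.94 ± 0.13 (adjusted p = 0.000632). For CCNG1 the change was 0.93 at 20% and -0.02 at 3%. DDB2 differed by 1.00 ± 0.25 (adjusted p = 0.0335), a call that was lost without any 1 of 9 arrays (adjusted p from 0.0623 to 0.0878) and kept without senescent replicate 3, young 3% replicate 2 or old replicate 1. TNFRSF10A (-0.95 ± 0.19, adjusted p = 0.00851) and TP53I3 (-1.17 ± 0.26, adjusted p = 0.0187) had negative differences. TNFRSF10A gave -0.44 at 20%, a call lost under 10 of 15 alternatives, and 0.51 at 3%, which was not called (adjusted p = 0.0858). TP53I3 gave -0.57 at 20% and 0.60 at 3%, and neither was called (adjusted p = 0.0675 and 0.175). The TP53I3 difference was not called without senescent replicate 3 (adjusted p = 0.0504). GADD45A differed by 0.46 ± 0.12 (adjusted p = 0.0354), a call that was lost without any 1 of 11 arrays, all but young 3% replicate 1 (0.0585 to 0.091). Over the 29 members, the changes at 20% and at 3% had the same sign in 20, and Pearson's r was 0.16 across these genes. Over all genes 54.6% had the same sign and r was 0.10. All genes share the 12 arrays and are not independent, so no p is given.

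**Figure D4:**
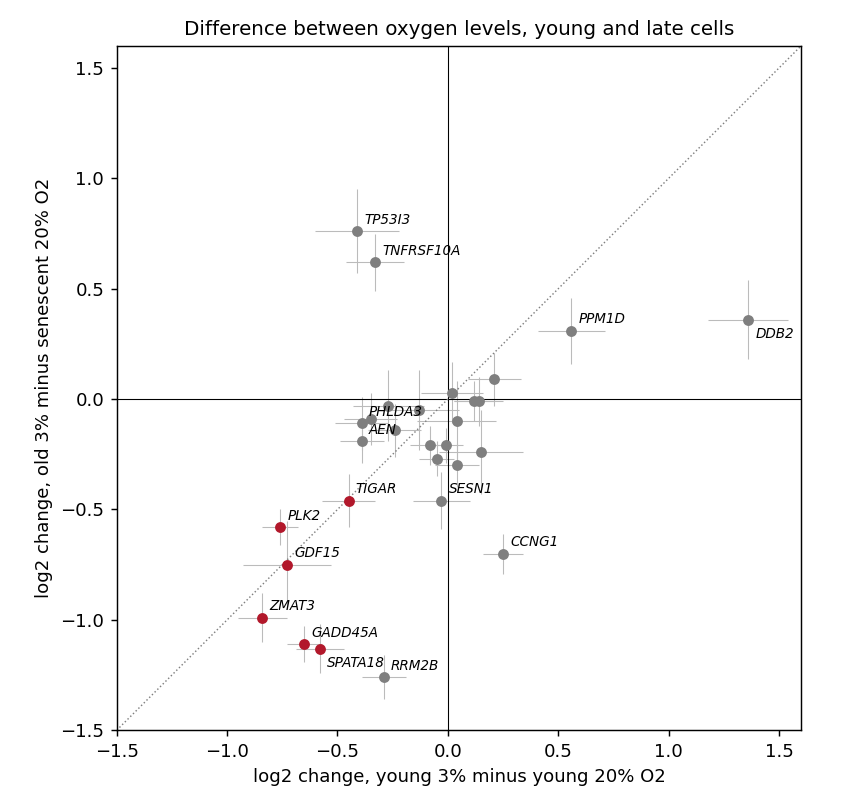
Log2 difference between oxygen levels of the 29 members, young cells at 3% minus young cells at 20% (x axis) and old cells at 3% minus senescent cells at 20% (y axis), with standard errors. Members called in both comparisons are red, and the dotted line marks equal difference. The 6 red members are all lower at 3% oxygen.

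Some members had a lower signal at 3% than at 20% oxygen in young and in late cells. The members GADD45A, GDF15, PLK2, SPATA18, TIGAR and ZMAT3 were lower at 3% in both comparisons, against 1.62% of all genes. The comparisons share no array, but the late one also sets nonsenescent against senescent cells. Of these members PLK2, SPATA18 and ZMAT3 were called higher in senescent than in young cells at 20% (0.68, 0.79 and 0.42). GADD45A, GDF15 and TIGAR were not. Members called higher at 3% in both, or in opposite directions, numbered 0 and 0, against 2.49% and 0.769% of all genes. The difference had the same sign in 21 of 29 members, against 52.6% of all genes, and Pearson's r was 0.49 across the members and 0.41 across all genes. Without young 20% replicate 1 or 3, 5 members were called between young cells, against 10 with all arrays. Other programs moved between the same groups. Targets of the hypoxia-inducible factors averaged 0.06 to 0.09 in young cells at 3%, against -1.13 to -1.03 in young cells at 20%, with 13 of 17 called higher. Immediate-early genes averaged -0.09 to 0.10, against 0.70 to 0.85, with 10 of 16 called lower. ATF4 targets averaged -0.06 to 0.14, against -0.73 to -0.62, with 7 of 13 called higher. Over all genes 4.96% were called higher and 6.84% lower between these young cells. The young cells at 20% stood apart in the same way from senescent cells. In senescent cells 13 of 17 hypoxia-inducible factor targets (median 1.21) and 7 of 13 ATF4 targets were called higher, against 4.67% of all genes. Of the immediate-early genes 10 of 16 were called lower, against 7.84%. In the interaction 12 of the 17 hypoxia-inducible factor targets and 6 of the 13 ATF4 targets were called positive and none negative. Of the 16 immediate-early genes 1 was positive and 7 negative, where 2.06% and 4.37% of all genes were called. In old against senescent cells 3 of the 17 hypoxia-inducible factor targets were higher and 6 lower, against 6.59% and 4.41% of all genes. There 3 of the 13 ATF4 targets were higher and none lower, and of the 16 immediate-early genes 1 was higher and 5 lower. The part of these programs in the differences of the p53 targets with passage, with oxygen and in the interaction was not tested.

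**Figure D5:**
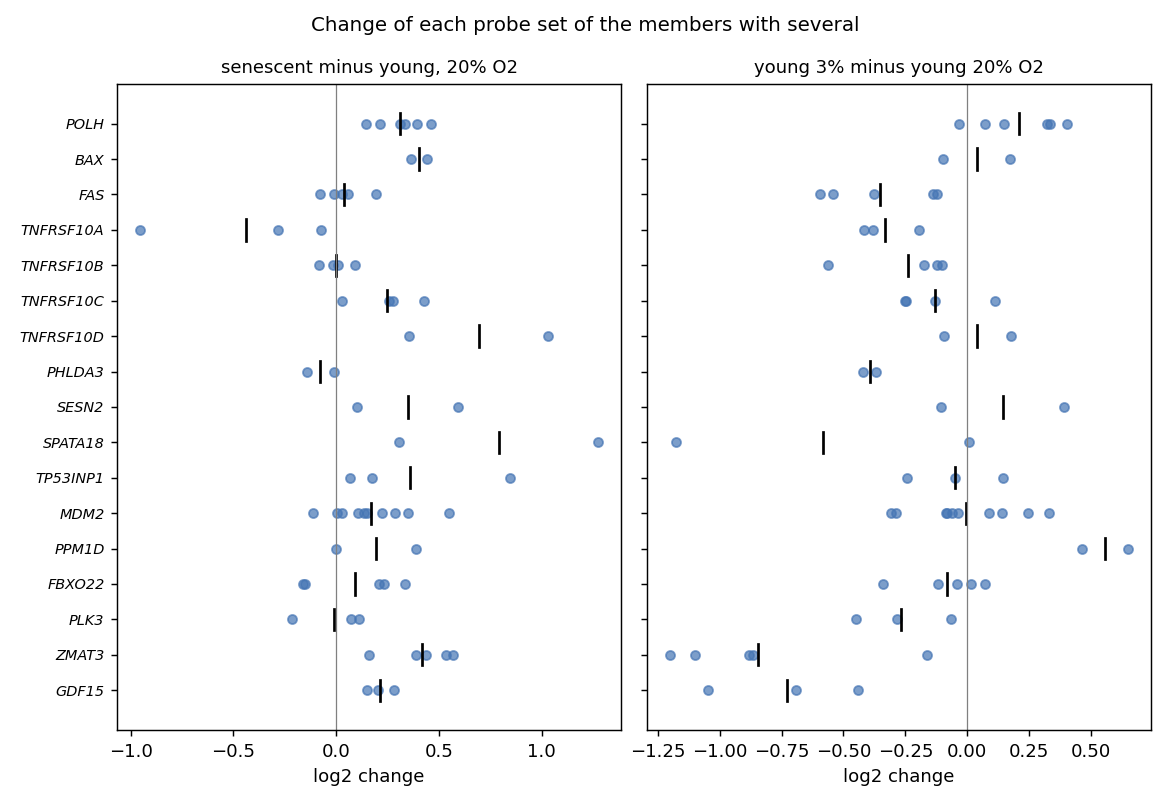
Log2 change of every probe set (points) of the 17 members with several, and their mean (line), for senescent minus young cells at 20% oxygen (left) and young cells at 3% minus 20% (right). ZMAT3 and GDF15 probe sets lie below 0 in the right panel, and SPATA18, TNFRSF10D and TP53INP1 each have 1 probe set far above the others at left.

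How far a gene's probe sets agreed bore on its value, as the plot of single probe sets shows. Of the 29 members 12 had 1 probe set and 17 several, up to 10 for MDM2. All 3 GDF15 probe sets were lower in young cells at 3% than at 20% (-1.05 to -0.44), all 3 of TNFRSF10A (-0.42 to -0.19) and both of PPM1D higher (0.47 and 0.65). The probe set with the largest SD was picked over the same 12 arrays, which favours larger group differences. Calls gained on it are therefore no independent support. On the probe set with the largest SD, TP53INP1 was called lower in old than in senescent cells (-0.88, adjusted p = 0.000303), and so was FBXO22 (-0.56, adjusted p = 0.0126). TNFRSF10D was called lower there too (-0.63, adjusted p = 0.00191). On that choice SESN2 was called higher in senescent cells than in young ones at 20% oxygen (0.59, adjusted p = 0.00852). The interaction was then called for TNFRSF10D (0.80, adjusted p = 0.00649, against 0.34 with all probe sets) and TP53INP1 (0.63, adjusted p = 0.0421), and for TNFRSF10A it was -1.73. The same choice ended the calls between young cells at 3% and 20% of PPM1D (adjusted p = 0.0755), PHLDA3 (0.203) and AEN (0.0511). It also ended those of SESN1 between old and senescent cells (0.0718) and of GADD45A in the interaction (0.0968). AEN, SESN1 and GADD45A have 1 probe set each, so their losses say nothing about agreement between probe sets. Their changes stayed the same, and their adjusted p moved only through the fit and correction over all genes.

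Genes that act on or with p53 were followed beside its targets. Of 24 listed regulators and cofactors, 21 were measured, 1 higher and 2 lower in senescent cells than in young ones at 20% oxygen, with a median change of -0.17 against 0.04 over all genes. That is near the background of 4.67% higher and 7.84% lower. The higher one was CDKN2A (0.47 ± 0.13, adjusted p = 0.0348). Of its products, ARF restrains MDM2, but the value is a mean for the gene and was not assigned to any product. The lower ones were NPM1, a nucleolar partner of ARF (-0.41 ± 0.09, adjusted p = 0.0104), and the deacetylase SIRT1 (-0.43 ± 0.12, adjusted p = 0.0298). MDM4, the inhibitory relative of MDM2, was not called (-0.24 ± 0.15, adjusted p = 0.427). In old against senescent cells 5 were higher and 1 lower, against 6.59% and 4.41% of all genes. The checkpoint kinase CHEK1 was higher (1.24 ± 0.12, adjusted p = 1.42e-05) and CDKN2A lower (-1.16 ± 0.13, adjusted p = 6.17e-05). Between old and young cells at 3% limma called 0 of the 21, near the 1.74% of all genes called there, and 2 had an unadjusted p under 0.05.

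Further p53 targets outside the member list were counted as well. Of 28 listed, 25 were measured, 6 higher and 2 lower in senescent cells than in young ones at 20% oxygen, with a median of 0.08, against 4.67% and 7.84% of all genes and their median of 0.04. Besides CDKN1A (1.76 ± 0.11, adjusted p = 6.17e-07), the largest rises were ANKRA2 (1.17 ± 0.19, adjusted p = 0.00106), TRIM22, an antiviral factor (1.06 ± 0.09, adjusted p = 9.47e-06), and FUCA1, a lysosomal fucosidase (0.68 ± 0.15, adjusted p = 0.00956). In old against senescent cells 1 was higher and 8 lower, against 6.59% and 4.41% of all genes, among them CDKN1A (-1.67 ± 0.11, adjusted p = 4.86e-07), TRIM22 (-1.61 ± 0.09) and DRAM1, an inducer of autophagy (-0.98 ± 0.10). In young cells at 3% against 20% oxygen 1 was higher and 6 lower, against 4.96% and 6.84% of all genes, with a median of -0.27, led by DRAM1 (-1.31 ± 0.10, adjusted p = 2.37e-06) and TRIM22 (-1.11 ± 0.09, adjusted p = 4.19e-06). CDKN1A itself was not called there (-0.27 ± 0.11, adjusted p = 0.152). Old against young cells at 3% had 2 higher and none lower, against 0.981% and 0.759% of all genes (limma; 8 with an unadjusted p under 0.05).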

How the data were processed

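Gene expression was measured on 12 Affymetrix arrays of IMR-90 cells, 3 in each of 4 groups. Per the submitters' processing notes the authors used RMA, with no version given in the sources used here. The deposited values were read as log2, the usual output of RMA, since no base is stated. Each of the 54675 probe sets has a median of 0 over the 12 arrays (tolerance 1e-06), which hides signal over background; the number of arrays limits the precision. Of the probe sets 62 were controls, 41091 named 1 gene (41037 matched to a current symbol by Entrez identifier), 1801 several genes and 11721 none. Those naming 1 gene were averaged per gene (19775 genes). With lmFit and eBayes of limma 3.58.1 (R 4.3.3) the 4 group means were estimated from the 12 arrays together; tests were two-sided, Benjamini-Hochberg over all genes, threshold 0.05; the fit was tested on simulated data. All measured members could be named, and from each other list the called genes with the largest changes and CDKN1A, CDKN2A and MDM4. Members and lists were chosen with earlier results of these data known. The deviations of same-numbered arrays all correlated over 0.1 for old and senescent cells alone (0.129, 0.519 and 0.669), so a replicate block was run over all groups and, added after seeing the data, in those 2 groups. Other alternatives were trend and robust eBayes, the probe set with the largest SD, quantile normalization, array centring, the compared groups alone, array weights, a threshold of 0.01, a filter on flat genes, ACTB 3' minus 5' as a covariate and leaving out each array. Promoters came from RefSeq (GRCh38.p14).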

Additional observations from a re-analysis of the deposited data

Results flagged for a closer look

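The change with passage differed between the oxygen levels by the interaction test in 6 of 29 members, 4 positive and 2 negative, against 6.44% of all genes (2.06% and 4.37%). The differences (20% minus 3% oxygen) were 0.97 for RRM2B, 0.94 for CCNG1, 1.00 for DDB2, 0.46 for GADD45A, -0.95 for TNFRSF10A and -1.17 for TP53I3. RRM2B gave 1.22 at 20% and 0.24 at 3%, CCNG1 0.93 and -0.02, and DDB2 1.18 and 0.19, called at 20% alone. TNFRSF10A gave -0.44 at 20% and 0.51 at 3%, TP53I3 -0.57 and 0.60, and GADD45A -0.26 and -0.72; of these, TNFRSF10A at 20% and GADD45A at 3% were called. The calls of RRM2B, CCNG1 and TNFRSF10A were kept when any 1 of the 12 arrays was left out. Beyond leaving out each array and weighting arrays by quality, groups of 3 arrays were not examined for single outlying arrays.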

How the results depend on the processing

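Of 39 calls of a member in a comparison, 24 were kept under every alternative run at 0.05, and 15 were lost under at least 1; no called value changed direction. Array quality weights gave 20 members between senescent and young cells at 20% oxygen (10 in all without them), with 6203 against 2474 genes called. At an adjusted p under 0.01, 5 members were called between young cells at 3% and 20%, 7 between old and senescent cells and 3 for the interaction. Leaving out 1 array gave 7 to 9 members for senescent against young cells, 2 for old against young cells at 3%, 5 to 8 for young cells at 3% against 20%, 8 to 9 for old against senescent cells and 4 to 6 for the interaction. The cause was not tested. Over all genes, old against young cells gave 124 calls in a fit of those groups alone, against 344. With the replicate block the counts of members were 9, 2, 9, 9 and 5 in the order above. It ended the calls of TNFRSF10A in senescence (adjusted p = 0.0782), of SESN1 (0.0559) in old against senescent cells, of GADD45A (0.0617) in the interaction and both of GDF15. In old and senescent arrays alone, a replicate block gave 11 members. Leaving out arrays was run for members, not for other named genes. The 3 arrays per group limit what can be called.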
